A study of Mus musculus with 9 samples.

Results

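The genes described here are 9 carbonic anhydrases of the mouse colon, Car1, Car2, Car3, Car4, Car7, Car8, Car9, Car12 and Car13, out of 21498 gene symbols measured and 16 symbols of this family. They were chosen by symbol, with their levels in these same samples already known, so their differences between groups are given as a description, and counts of members past a threshold are printed only beside the share of all genes and support nothing. RNA-seq was performed on colorectal tissue of 9 male ICR mice (an outbred strain, 5 weeks old at the start), 3 in each of 3 groups, taken at the end of week 18. Control mice (Control) received neither carcinogen, colitis agent nor antibody, and their tissue is labelled normal colorectal mucosa. The mice of the other two groups all received a single injection of 10 mg/kg azoxymethane (AOM), a carcinogen of the colon, and then drank dextran sulfate sodium (DSS), which injures the colonic epithelium, in 3 cycles, the first with 2% DSS over 7 days and the later ones with 1.5% over 5 days. During the DSS cycles one of these groups was injected with 1.5 mg/kg of IgG Ab (AOM/DSS + IgG Ab, below IgG) and the other with 1.5 mg/kg of anti-S100a9 Ab, which neutralizes the calprotectin subunit S100a9 (AOM/DSS + anti-S100a9 Ab, below anti-A9). The labels call the tissue of both AOM/DSS groups colorectal adenocarcinoma, whereas the study's text calls the anti-A9 samples mucosa. Bulk pieces of tissue were sequenced, so fewer cells of a type and less RNA per cell cannot be told apart.

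Carbonic anhydrases convert carbon dioxide and water into bicarbonate and a proton, and back. In the colon the enzymes of the absorptive surface epithelium supply the protons and bicarbonate that are exchanged for sodium and chloride when salt is taken up. Members differ in where they work. Car1, Car2, Car3, Car7 and Car13 are enzymes of the cytosol, Car4, Car9 and Car12 are held in the cell membrane with their active site outside the cell, and Car8 is a cytosolic relative without catalytic activity. Car3 is known for its high level in adipocytes and skeletal muscle, Car4 for the brush border of surface colonocytes, and Car9 as a target of the hypoxia-inducible factors.

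The catalytic zinc ion is held by 3 histidines. The coding sequence around the first and the second of them shows what 8 of the genes share. Each line holds 33 bases of the coding strand of the principal GENCODE M21 transcript (GRCm38), 5′ to 3′, and the capitals mark the codons that align with these histidines of Car2.
Car1: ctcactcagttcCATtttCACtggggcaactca
Car2: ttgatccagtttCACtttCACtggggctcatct
Car3: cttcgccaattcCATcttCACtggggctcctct
Car4: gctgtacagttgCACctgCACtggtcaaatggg
Car7: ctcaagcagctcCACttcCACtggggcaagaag
Car9: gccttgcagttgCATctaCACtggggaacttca
Car12: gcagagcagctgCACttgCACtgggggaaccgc
Car13: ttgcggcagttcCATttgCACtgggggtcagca
Both codons encode histidine in all 8 genes shown, as does the codon of the last zinc-binding histidine. Car8, the relative without catalytic activity, was left out by name, so this count says nothing about it. Translated coding sequences matched that of Car2 at 58.3% of aligned residues for Car1, 57.4% for Car13, 56.9% for Car3 and 55.0% for Car7, and at 36.6% to 38.4% for the membrane forms. The closest pair of these was Car1 and Car13, at 64.0%. Car13, Car1, Car3 and Car2 are neighbours on chromosome 3 of GRCm38, at 14641727 to 14663002, 14766216 to 14808368, 14863512 to 14872523 and 14886273 to 14900770, with gaps of 103.2, 55.14 and 13.75 kb. The others lie apart, Car4 on chromosome 11 (84957786 to 84966044), Car7 on chromosome 8 (104534689 to 104550343), Car8 on chromosome 4 (8143362 to 8239041), Car9 on the same chromosome (43506966 to 43513729) and Car12 on chromosome 9 (66713686 to 66766845).

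Values are FPKM (fragments scaled to transcript length and to library size), as far as the values show, since the unit is not stated. They sum to between 308377 and 408811 per sample. No fragment counts are given, so the counting error of a value cannot be computed, and the 3 mice per group set the precision. Gapdh, Ppia and Rps18 reached at most 0.755, 0.974 and 0.391 FPKM in any sample, far below what nearly all cells make of them, so a gene at 0 is called listed at 0, not absent. Differences between groups are log2 fold changes on the log2(FPKM + 0.1) scale, where the added 0.1 shrinks the differences of low genes, with standard errors (SE) from limma fitted to all 9 samples. A gene is called when its Benjamini-Hochberg adjusted p over the 15278 genes tested is under 0.05. All 9 carbonic anhydrases passed the filter on low values, at least 0.1 FPKM in at least 3 samples. The IgG samples enter both comparisons made with them, so opposite differences in these comparisons share the same 3 samples.

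Values in FPKM are scaled to transcript length and can be ranked across genes, but the unit is inferred and the low values of Gapdh, Ppia and Rps18 show that a listed value can be far from a gene's level, so the order below is that of the listed values. In Control the highest mean levels were those of Car2 (395.1 ± 107.2 FPKM, SD, n = 3), Car4 (380.6 ± 94.73) and Car1 (276.2 ± 47.54), and the samples of neighbours in this order overlapped. Car3 followed with 68.07 ± 69.26 FPKM and overlapped with Car9 (20.60 ± 3.27), which lay above Car13 (9.48 ± 2.79) in every sample. Car12 and Car8 overlapped at 2.56 ± 0.97 and 1.94 ± 0.42 FPKM, and Car7 was lowest with 0.431 ± 0.118. In IgG, Car2 (163.9 ± 47.85 FPKM) lay above Car1 (50.05 ± 32.40) without overlap, whereas Car1, Car4 (23.55 ± 28.27), Car9 (16.32 ± 9.40), Car13 (7.83 ± 2.20), Car3 (4.46 ± 7.17) and Car12 (3.52 ± 0.75) each overlapped with the next. In anti-A9, Car1 (360.8 ± 315.7 FPKM), Car2 (342.7 ± 72.79) and Car4 (259.4 ± 81.35) again overlapped at the top, and Car3 had moved down to the place before the last (0.583 ± 0.684).

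**Figure D1:**
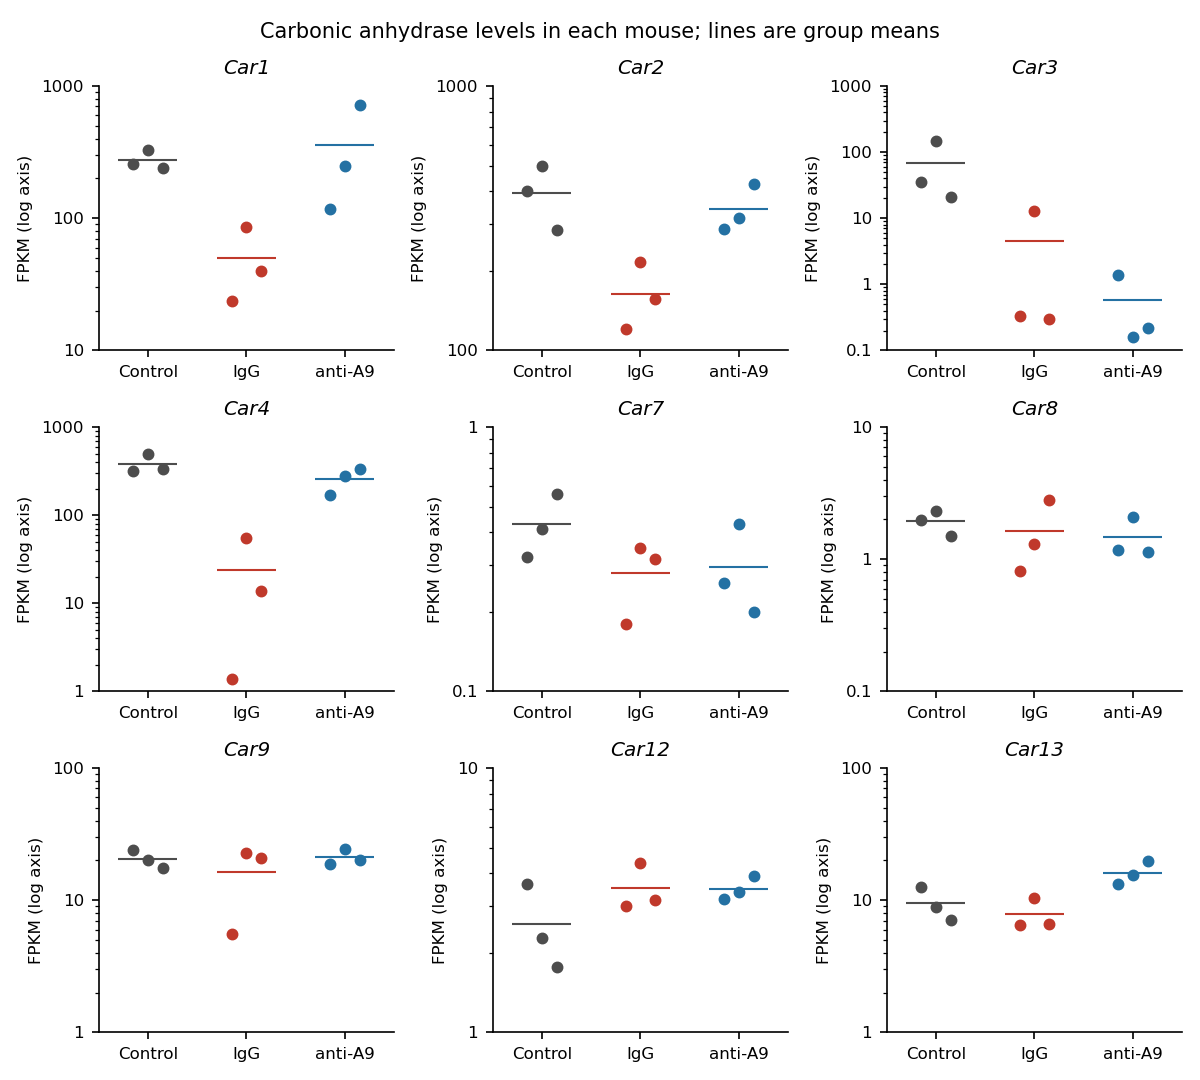
FPKM (log axis, 1 range per panel) of the 9 carbonic anhydrases in each of the 9 mice, with Control in grey, AOM/DSS + IgG Ab in red and AOM/DSS + anti-S100a9 Ab in blue; points are mice and lines are means of 3 mice. The IgG points of Car1, Car2 and Car4 lie below all points of the other two groups, Car3 is highest in Control, and Car7, Car8 and Car12 overlap between the groups.

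Of the cytosolic forms, Car2 is the widespread, fast enzyme of the family and Car1 is the form typical of red cells and of colonic surface epithelium. Car2 was 400.5, 499.5 and 285.4 FPKM in Control mice 1, 2 and 3, 120.4, 215.1 and 156.3 in IgG mice, and 287.3, 315.6 and 425.2 in anti-A9 mice. All IgG samples lay below all others, and Control and anti-A9 samples overlapped. Its mean was 2.41-fold lower in IgG than in Control (log2 fold change -1.27, SE 0.29) and 2.09-fold higher in anti-A9 than in IgG (1.08, SE 0.29). The difference between anti-A9 and Control was smaller than its error (-0.19, SE 0.29) and turned positive under quantile normalization.

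Car1 was 257.7, 330.2 and 240.7 FPKM in Control, 23.79, 86.26 and 40.10 in IgG, and 116.8, 248.3 and 717.3 in anti-A9. Every IgG value was below every other, and anti-A9 mouse 3 held the highest value of all, more than 2-fold above any Control mouse, while anti-A9 mouse 1 was below all Control mice. The mean was 5.52-fold lower in IgG than in Control (log2 fold change -2.65, SE 0.64) and 7.21-fold higher in anti-A9 than in IgG (2.66, SE 0.64). Against Control, the anti-A9 difference was 0.01 (SE 0.64) on the log2 scale and was -0.68 without anti-A9 mouse 3.

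Car13, a cytosolic form found in the gut, among other tissues, was 12.53, 8.84 and 7.07 FPKM in Control, 6.45, 10.36 and 6.66 in IgG, and 13.27, 15.48 and 19.84 in anti-A9. Here Control and IgG overlapped, and all anti-A9 samples lay above all others. The mean in anti-A9 was 2.07-fold that in IgG (log2 fold change 1.05, SE 0.27) and 1.71-fold that in Control (0.79, SE 0.27), and the difference between IgG and Control was -0.27 (SE 0.27). Unlike Car1 and Car2, its neighbours on chromosome 3, it did not separate IgG from Control.

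Car4, the membrane-anchored form of the brush border, was 318.2, 489.6 and 334.0 FPKM in Control, 1.37, 55.38 and 13.90 in IgG, and 170.4, 277.7 and 330.0 in anti-A9. The IgG mice were all far below the others but spread widely among themselves, with mouse 1 lowest and mouse 2 highest. Its mean was 16.2-fold lower in IgG than in Control (log2 fold change -5.16, SE 1.06) and 11.0-fold higher in anti-A9 than in IgG (4.58, SE 1.06). Leaving out IgG mouse 1 moved these differences to -3.74 and 3.17. Between anti-A9 and Control the difference was -0.58 (SE 1.06), and the samples overlapped.

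Car9 and Car12, the membrane forms linked to hypoxia and to tumours in the literature on this family, did not separate IgG from the other groups as Car4 did. Car9 was 24.03, 20.27 and 17.51 FPKM in Control, 5.53, 22.72 and 20.71 in IgG, and 18.68, 24.45 and 20.10 in anti-A9. The IgG mean was below the other groups through mouse 1 alone. The log2 fold change between IgG and Control was -0.57 (SE 0.46), and it was 0.09 without IgG mouse 1. For anti-A9 against IgG it was 0.60 (SE 0.46), or -0.05 without this mouse. Car12 was 3.64, 2.27 and 1.77 FPKM in Control, 3.00, 4.38 and 3.17 in IgG, and 3.19, 3.40 and 3.90 in anti-A9, and all 3 groups overlapped. It was the only one of the 9 with a higher mean in IgG than in Control (1.37-fold, log2 fold change 0.49, SE 0.28).

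Car3 was the only member in which every Control sample lay above every sample of both other groups. It was 35.36, 147.6 and 21.23 FPKM in Control, 0.333, 12.74 and 0.297 in IgG, and 1.37, 0.159 and 0.218 in anti-A9. In the AOM/DSS groups 5 of the 6 mice were at or under 1.37 FPKM and IgG mouse 2 was at 12.74. The mean was 15.3-fold lower in IgG than in Control (log2 fold change -5.21, SE 1.36) and 117-fold lower in anti-A9 than in Control (-6.60, SE 1.36). Between anti-A9 and IgG the difference was -1.39 (SE 1.36), and it was 0.26 without IgG mouse 2.

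Car7, a form best known from brain and muscle, and Car8 had low levels in all groups. Car7 lay between 0.179 and 0.556 FPKM in all 9 mice, and its groups overlapped (log2 fold change of IgG against Control -0.48, SE 0.33). Car8 was 1.99, 2.33 and 1.49 FPKM in Control, 0.814, 1.31 and 2.80 in IgG, and 1.16, 2.09 and 1.12 in anti-A9, with overlap in each pair of groups (-0.37, SE 0.43, for IgG against Control). Differences of anti-A9 from IgG were 0.04 and -0.04 for these genes, and their sign changed when single mice were left out.

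**Figure D2:**
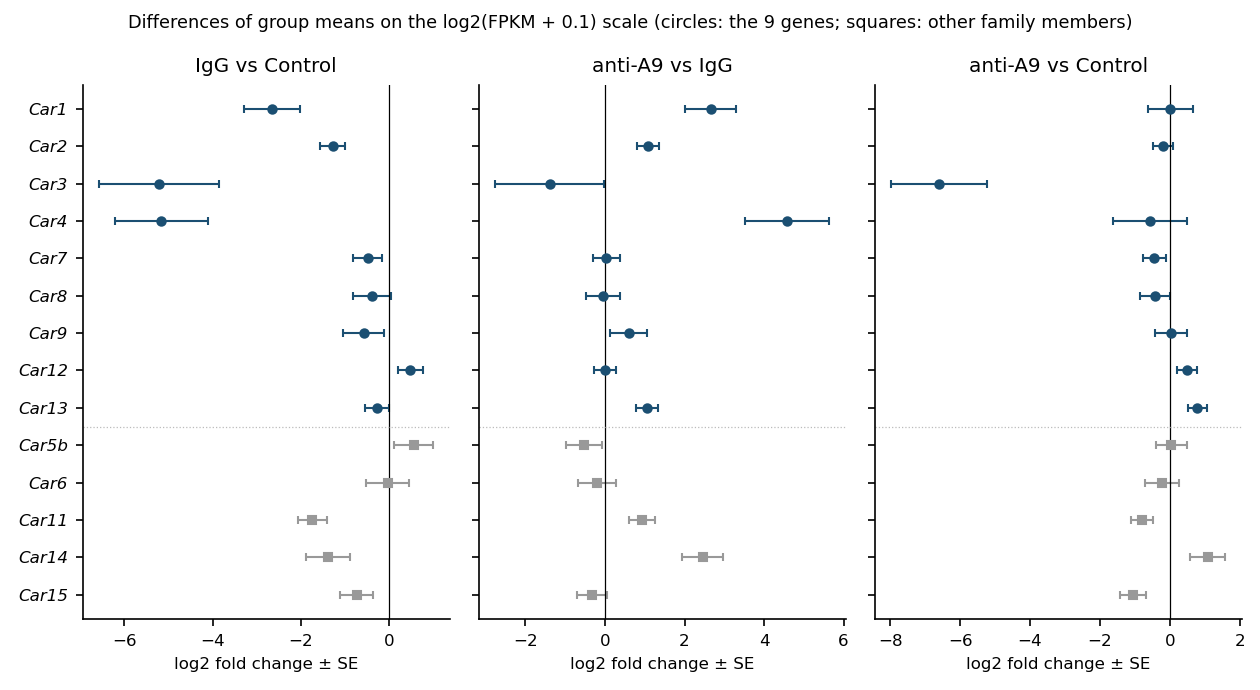
Differences between group means as log2 fold changes on the log2(FPKM + 0.1) scale (x axis) for the 9 carbonic anhydrases (circles) and the 5 further family members tested (squares), in 3 comparisons; bars are 1 SE. In the IgG vs Control panel Car3 (-5.21) and Car4 (-5.16) lie farthest left, in the anti-A9 vs IgG panel Car4 (4.58) lies farthest right, and in the anti-A9 vs Control panel Car3 (-6.60) is far from 0.

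Counted over the 9 genes, 4 (Car1, Car2, Car3 and Car4) were called lower in IgG than in Control, where 3.01% of all genes tested were called lower, and none higher, where 8.18% of all genes were. In anti-A9 against IgG, 4 (Car1, Car2, Car4 and Car13) were called higher, with a background of 6.72%, and none lower, with a background of 14.4%. No other member had an unadjusted p under 0.05 in either comparison, beside 4507 and 5978 of the 15278 genes tested. No member was called by limma in anti-A9 against Control, where 0.00655% of genes were called higher and 0.00655% lower. There 2 members had an unadjusted p under 0.05, beside 2439 of the 15278 genes tested. The study's own thresholds (unadjusted p under 0.05 and more than 2-fold) were applied here to limma, not to its DESeq test. Under them 1 member, Car3, was lower in anti-A9 than in Control, with a background of 0.864%. By plain separation of the samples, 4 members lay wholly lower in IgG than in Control (background 10.2%), 4 wholly higher in anti-A9 than in IgG (18.5%), 1, Car3, wholly lower in anti-A9 than in Control (13.7%), and 1, Car13, wholly higher (17.3%). Since the genes were picked with these values known, nothing is read from these counts. They also changed with the mice included, as did the calls over all genes, and a fit without 1 mouse has fewer samples. Over all genes, calls in IgG against Control numbered 1710 with all mice and 591 to 2167 without 1 mouse. In anti-A9 against IgG they numbered 3219 with all mice and 516 to 4114 without 1 mouse. The 4 lower calls against Control became 0 without Control mouse 1 or 2, 1 without IgG mouse 1 or 3, and 2 without Control mouse 3 or anti-A9 mouse 2. The 4 higher calls against IgG became 0 without anti-A9 mouse 2 or 3 and 1 without anti-A9 mouse 1, IgG mouse 1 or IgG mouse 3. Directions of the called differences were the same in every one of these fits.

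The make-up of the carbonic anhydrase signal differed between the groups. The summed FPKM of the 9 genes was 909.7 to 1501 in Control, 161.8 to 408.6 in IgG and 612.5 to 1518 in anti-A9. Car1, Car2 and Car4 together held 86.1% to 97.0% of it in every mouse. Car2 alone made up 34.2 ± 3.4% (SD, n = 3) in Control, 63.7 ± 10.9% in IgG and 36.8 ± 9.5% in anti-A9, and Car4 made up 33.2 ± 3.3%, 6.70 ± 6.41% and 27.0 ± 4.8%. The ratio of Car2 to Car4 was 1.26, 1.02 and 0.854 in Control, 87.9, 3.89 and 11.2 in IgG, and 1.69, 1.14 and 1.29 in anti-A9. The lowest IgG ratio was thus more than 2-fold above the highest of the other groups. Membrane forms (Car4, Car9 and Car12) held 32.8% to 38.8% of the sum in Control, 6.12% to 20.2% in IgG and 23.3% to 34.4% in anti-A9. Shares and ratios within a sample do not depend on how samples are scaled to each other, and they show unequal change between genes, not which gene changed.

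**Figure D3:**
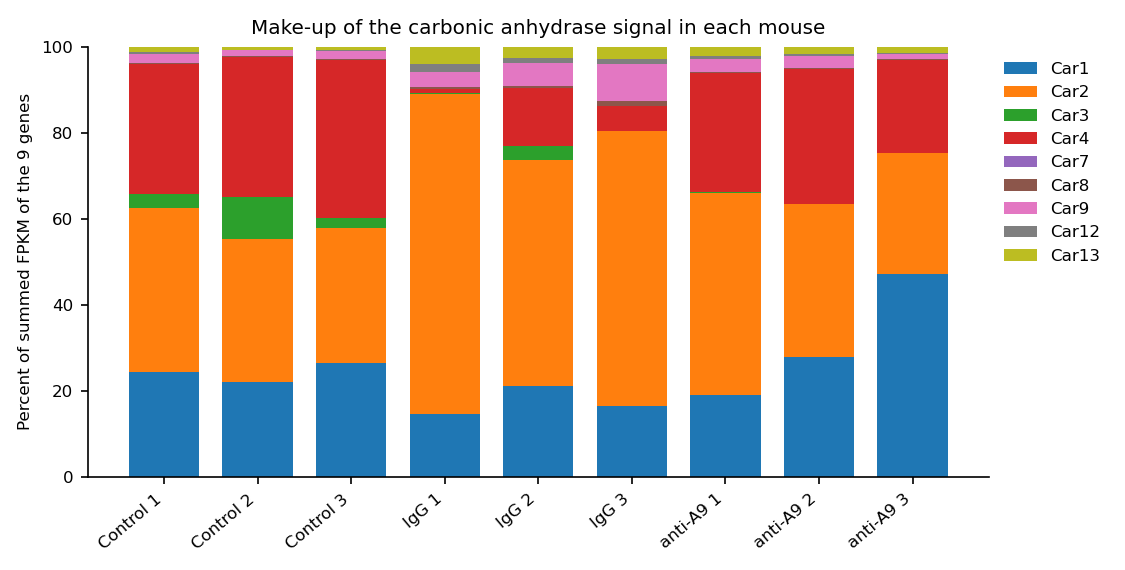
Share of each carbonic anhydrase in the summed FPKM of the 9 genes (y axis, percent) in each mouse (x axis); the stacked bars add up to 100%. Car2 takes 52.7% to 74.4% of the bar in the 3 IgG mice and 28.0% to 46.9% in the other 6, and the red Car4 section shrinks to 0.847% to 13.5% in IgG.

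The genes whose profiles over the 9 samples were most like each member were sought among 13073 genes, by the root mean square difference of log2 values centred on each gene's mean. Nearest to Car4 were Aqp8 (0.74), Slc26a3 (0.75) and Rims4 (0.89), and nearest to Car1 were Mep1a (0.46), Edn1 (0.55) and Dio1 (0.57). Aqp8, a water channel, Slc26a3, a chloride-bicarbonate exchanger, and Mep1a, a brush border protease, are genes of surface colonocytes. Car2 had its closest match in Ugdh (0.06), an enzyme of glucuronate synthesis, before Slc5a1 (0.15) and Tesk2 (0.17). For Car3 the nearest were Adipoq (0.70), the adipocyte hormone adiponectin, Cfd (0.72), the adipocyte protease adipsin, and Cyp2e1 (1.01). Car9 was nearest to Gcnt3 (0.13), St6galnac4 (0.18) and Sybu (0.22), Car13 to Serpinb8 (0.14), Ms4a4d (0.16) and Dhdh (0.16), and Car12 to Coq10b (0.16), Nudcd1 (0.18) and Sdad1 (0.18). Car7 was nearest to Osbpl7 and Ngef (both 0.14) and Krt19 (0.16), and Car8 to Pycard and Clic6 (both 0.26) and Gne (0.27). Among the members themselves Car7 and Car8 were the closest pair (0.42), and Car3 and Car12 the most distant (3.44).

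Over the 15 markers of surface colonocytes the median log2 fold change was -1.84 in IgG against Control (0.09 over all genes tested). It was 1.08 in anti-A9 against IgG (-0.06) and -0.27 in anti-A9 against Control (0.04). In these comparisons 12, 10 and 2 of the 15 had an unadjusted limma p under 0.05, beside 4507, 5978 and 2439 of all 15278 genes. Not every marker followed the medians. The summed level of the 15 genes was 10580 to 15030 FPKM in Control, 2618 to 7491 in IgG and 7207 to 9809 in anti-A9. IgG mouse 1, the mouse with the lowest Car1, Car2 and Car4, was lowest in this sum. The sum in anti-A9 thus overlapped with IgG and lay below every Control mouse. Lypd8, Saa1 and Guca2a, the most abundant of the list, held most of this sum, and each overlapped between anti-A9 and IgG. Car1, Car2 and Car4 in anti-A9 lay above every IgG mouse and overlapped with Control. So did the markers Slc26a3, Aqp8 and Mep1a, which are among the nearest profiles of Car4 or Car1. Slc9a3 in anti-A9 lay below every IgG mouse. In IgG against Control 6 of the 15 were called lower and 2 higher (Slc9a3 and Ms4a10), and in anti-A9 against IgG 4 were called (Ceacam20, Slc26a3, Slc5a8 and Mep1a), all higher. Over all genes tested, 3.01% were called lower and 8.18% higher in the first comparison, and 14.4% lower and 6.72% higher in the second. Aqp8 was 162.0, 164.7 and 158.3 FPKM in Control, 1.08, 39.90 and 32.69 in IgG, and 101.7, 139.8 and 204.6 in anti-A9, which missed the threshold against Control (log2 fold change -3.81, SE 1.13, adjusted p = 0.062) and in anti-A9 against IgG (3.63, adjusted p = 0.051). The most abundant of the list were Lypd8 (7327, 4217 and 5951 FPKM on average in Control, IgG and anti-A9), Saa1 (2227, 705.0 and 1363) and Guca2a (1941, 463.9 and 632.1). Guca2a, which encodes guanylin, fell in IgG against Control (-2.50, SE 0.68, adjusted p = 0.048), a call kept only without IgG mouse 1 or IgG mouse 2 among the 9 fits that left out a mouse, with adjusted p-values of 0.02 to 0.12 over 18 alternatives. Of the 9 alternatives in processing or groups fitted, 3 kept this call. The 13 markers of all epithelium summed to 6712 to 9256, 5278 to 8539 and 5610 to 7280 FPKM in the same order, with 1 of them, Krt18, called higher in IgG than in Control and lower in anti-A9 than in IgG. Their abundant members Krt19, Lgals4 and Krt8 had no called difference (adjusted p of 0.31 to 0.55 for IgG against Control). The part of surface colonocytes in the levels of Car1, Car2 and Car4 was not tested.

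Car3 moved with some markers of adipocytes, among them Adipoq and Cfd, its nearest profiles, but not with all of the list. Adipoq was 4.26, 16.89 and 2.99 FPKM in Control, 1.23 in IgG mouse 2, 0.047 in anti-A9 mouse 1 and listed at 0 in the remaining mice. Cfd was 30.66, 133.1 and 31.47 FPKM in Control, 0.062, 12.38 and 0 in IgG, and 1.16, 0.094 and 0.156 in anti-A9. In these genes, as in Car3, Control mouse 2 was highest and IgG mouse 2 was highest among the AOM/DSS mice. The abundant Pck1 and Fabp4 went otherwise. Pck1 was 75.17, 68.02 and 49.94 FPKM in Control, 2.49, 22.78 and 20.00 in IgG, and 33.91, 37.53 and 46.66 in anti-A9, and Fabp4 was highest in mouse 3 among the IgG mice (37.72, beside 31.33 in mouse 2). In IgG against Control 6 of the 11 adipocyte markers tested were called, all of them lower, among them Adipoq (log2 fold change -4.69, SE 1.01, adjusted p = 0.022), Cfd (-6.43, SE 1.67, adjusted p = 0.042) and Pck1 (-2.58, SE 0.71, adjusted p = 0.049). Of all genes tested, 3.01% were called lower in this comparison. The marker calls changed with the mice included and with the processing. That of Adipoq was lost without Control mouse 1 or 2 or IgG mouse 1 or 3 (0.0021 to 0.078 over 18 alternatives), and of the fits that left out 1 mouse only that without IgG mouse 2 kept Cfd (0.0016 to 0.13) and only those without IgG mouse 1 or 2 kept Pck1 (0.0052 to 0.13). Of the 9 alternatives in processing or groups fitted, 8 kept Adipoq, 5 kept Cfd and 1 kept Pck1. In anti-A9 against IgG no marker was called by limma, and 3 had an unadjusted p under 0.05, beside 5978 of all 15278 genes tested. The 12 markers summed to 137.4 to 372.1 FPKM in Control, 19.23 to 77.83 in IgG and 71.19 to 81.59 in anti-A9, with Pck1 and Fabp4, which other cells of the colon make as well, holding much of the sum in the AOM/DSS groups. Skeletal muscle, the other tissue rich in Car3, was followed by its markers too. Of its 12 markers Acta1 was listed at 0 in all 9 mice, and the sums were 6.13 to 13.69, 4.23 to 12.23 and 7.52 to 13.99 FPKM, with Ckm the highest (7.66, 3.10 and 9.13 on average). In IgG against Control 1 of 8 muscle markers tested, Myh2, was called lower, and in anti-A9 against IgG Myh2 was called higher and 2, Tnni2 and Mylpf, lower. The shares of all genes tested were 3.01% lower in the first comparison, and 6.72% higher and 14.4% lower in the second. The part of adipocytes or of skeletal muscle in the level of Car3 was not tested.

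**Figure D4:**
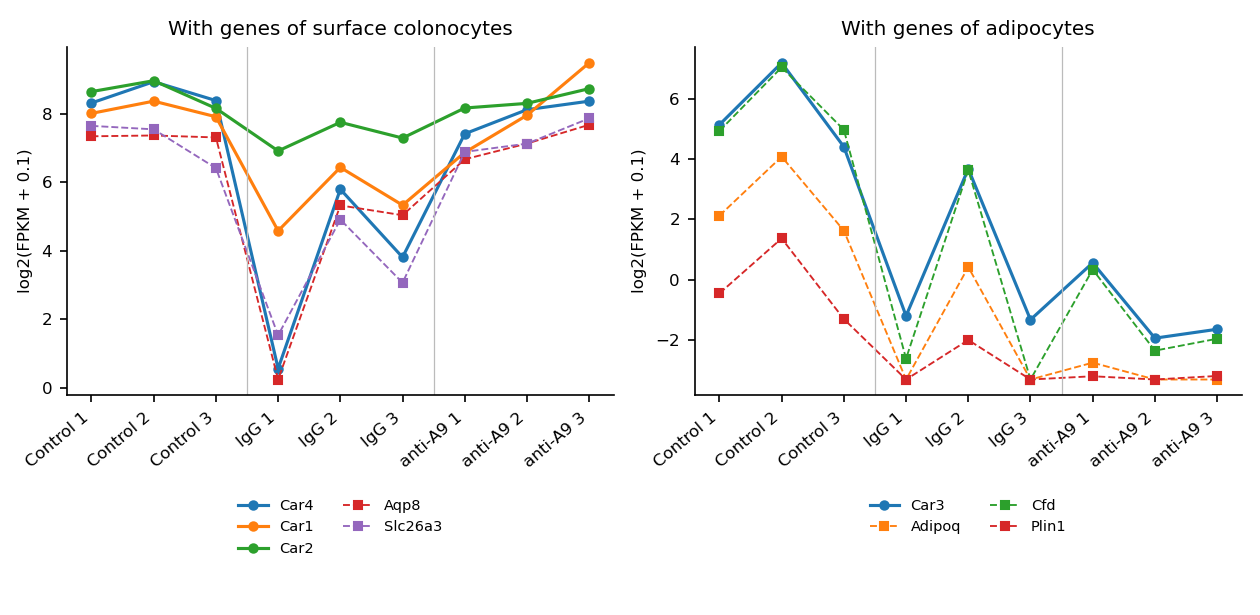
Levels of Car4, Car1 and Car2 beside the surface colonocyte genes Aqp8 and Slc26a3 (left) and of Car3 beside the adipocyte genes Adipoq, Cfd and Plin1 (right), as log2(FPKM + 0.1) (y axis) in each mouse (x axis); vertical lines part the groups, solid lines are carbonic anhydrases and dashed lines marker genes. All 5 lines on the left are at their lowest in IgG mouse 1, and on the right all lines peak in Control mouse 2 and have a second, smaller peak in IgG mouse 2. Aqp8 and Slc26a3 were the genes nearest in profile to Car4, and Adipoq and Cfd to Car3, so this likeness is no separate observation. Of the surface colonocyte list, Slc9a3 and Ms4a10, called higher in IgG than in Control, are not drawn. Guca2a, which overlapped between anti-A9 and IgG, is not drawn either. The adipocyte list members Pck1 and Fabp4, which do not follow the pattern on the right, are also left out.

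Marker lists of other cells that the pieces of tissue could hold were followed as well. Of the erythroid list, which matters for the red cell forms Car1 and Car2, Hba-a2 was listed at 0 and the sums were 69.01 to 91.60 FPKM in Control, 52.09 to 300.7 in IgG and 37.67 to 63.35 in anti-A9. Alas2, the first enzyme of heme synthesis in red cells, was higher in IgG than in Control (2.14, SE 0.29, adjusted p = 0.0033) and lower in anti-A9 than in IgG (-2.32, adjusted p = 0.0037). It was the 1 called erythroid gene in each of these comparisons. Endothelial markers summed to 85.29 to 109.7, 86.73 to 193.2 and 81.11 to 114.3 FPKM, with Gpihbp1 called higher in IgG than in Control and lower in anti-A9 than in IgG. Squamous epithelial markers, genes of stratified epithelia such as that of the anal canal, summed to 4.02 to 7.65 FPKM in Control, 27.65 to 64.10 in IgG and 6.15 to 10.64 in anti-A9, with 6 of 9 tested called higher in IgG than in Control and 7 called lower in anti-A9 than in IgG. Sprr1a, for example, rose by 3.14 (SE 0.47, adjusted p = 0.0053). Among all genes tested, 8.18% were called higher and 3.01% lower in IgG against Control. In anti-A9 against IgG these shares were 6.72% and 14.4%. In anti-A9 against Control no marker of any list was called by limma, and between 0 (skeletal muscle, erythroid and endothelium) and 7 (adipocyte) had an unadjusted p under 0.05. Among all 15278 genes tested 2439 had one. Whether squamous tissue in the IgG pieces bears on the carbonic anhydrase levels was not tested.

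The 7 other family members in the files were not among the genes chosen and are given with their tests. Car11, a relative without catalytic activity, was 2.66, 4.03 and 5.38 FPKM in Control, 0.754, 1.30 and 1.32 in IgG, and 1.72, 2.27 and 2.66 in anti-A9. It fell in IgG against Control (log2 fold change -1.73, SE 0.33, adjusted p = 0.013), with every IgG mouse below every Control mouse. Only the fit without Control mouse 2 lost this call (adjusted p = 0.055; 0.0051 to 0.055 over 18 alternatives). Car14, a membrane form with its active site outside the cell, was 0.725, 1.09 and 0.566 FPKM in Control, 0.121, 0.121 and 0.664 in IgG, and 1.89, 2.28 and 1.20 in anti-A9. It rose in anti-A9 against IgG (2.46, SE 0.51, adjusted p = 0.017), and the call was lost without anti-A9 mouse 1 (adjusted p = 0.06) or mouse 2 (0.067), with a range of 0.0094 to 0.067. Mitochondrial Car5b, secreted Car6 and membrane-bound Car15 had means of at most 1.51 FPKM in any group and no called difference. Car5a was listed at 0 in all 9 mice, and Car10 reached at most 0.0197 FPKM and was not tested. Against Control, anti-A9 gave no call among the 5 genes tested, and 2 had an unadjusted p under 0.05, beside 2439 of all 15278 genes.

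Transporters that carry the protons, bicarbonate and chloride served by these enzymes changed in both directions. Of the 22 acid-base partners 19 were tested, and in IgG against Control 4 rose and 3 fell, beside a median log2 fold change of -0.34 (0.09 over all genes tested). In this comparison 8.18% of all genes tested were called higher and 3.01% lower. Slc26a3, the chloride-bicarbonate exchanger of the surface epithelium, was 200.1, 186.5 and 85.05 FPKM in Control, 2.79, 29.94 and 8.26 in IgG, and 118.1, 139.6 and 233.0 in anti-A9. It fell by 4.03 on the log2 scale (SE 0.74, adjusted p = 0.012), a call lost only without Control mouse 2 (adjusted p = 0.052; 0.002 to 0.052 over 18 alternatives). The basolateral sodium-bicarbonate cotransporter Slc4a4 fell by 2.24 (SE 0.46, adjusted p = 0.019), and the monocarboxylate transporter Slc16a1 fell by 1.54 (SE 0.30, adjusted p = 0.015). The Slc4a4 call was lost without Control mouse 1 or 2 or IgG mouse 1 or 3 (0.0054 to 0.071), and the Slc16a1 call without Control mouse 2 (0.0053 to 0.063). Both calls were also lost with only the 2 groups compared in the limma fit (adjusted p = 0.053 and 0.051).

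Among the transporters that rose in IgG against Control was Slc16a3, the lactate exporter of glycolytic cells, at 1.95, 2.09 and 1.49 FPKM in Control, 18.88, 20.74 and 15.22 in IgG, and 3.14, 3.31 and 3.89 in anti-A9. It rose by 3.25 (SE 0.20, adjusted p = 0.00025) and kept this call under all 18 alternatives (9.2e-05 to 0.002). The sodium-proton exchanger Slc9a4 was at most 0.042 FPKM in Control and 7.87, 0.957 and 2.11 in IgG (4.51, SE 0.64, adjusted p = 0.0043), and Slc4a11 rose by 2.71 (SE 0.49, adjusted p = 0.011). Both kept their calls in each alternative in which they were tested (highest adjusted p 0.032 and 0.048). Slc9a3, the sodium-proton exchanger of the brush border, was 3.70, 2.77 and 0.554 FPKM in Control and 40.42, 13.31 and 7.26 in IgG (3.05, SE 0.76, adjusted p = 0.037), although the list of surface colonocyte markers holds it too. Of the 9 fits that left out a mouse, only that without IgG mouse 3 kept its call (0.03 to 0.095 over 18 alternatives). The whole count of 7 was 3 without Control mouse 2.

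In anti-A9 against IgG 7 of the 19 rose and 3 fell, beside a median log2 fold change of 0.12 (-0.06 over all genes tested). Over all genes tested 6.72% were called higher here and 14.4% lower, so 3 falls among 19 are near the background. Slc26a3 rose by 4.13 (SE 0.74, adjusted p = 0.012) and kept its call in all 18 alternatives (0.0029 to 0.048). Atp12a, the proton pump of the distal colon, was 3.39, 31.02 and 16.64 FPKM in IgG and 58.37, 93.52 and 108.7 in anti-A9 (2.79, SE 0.68, adjusted p = 0.025). Slc16a1 (1.39, adjusted p = 0.019), Slc4a4 (2.02, adjusted p = 0.021) and the sodium-proton exchanger Slc9a2 (1.40, adjusted p = 0.035) also rose, as did the bicarbonate cotransporter gene Slc4a7 and the anion channel gene Cftr. Slc16a3 (-2.37, SE 0.20, adjusted p = 0.001), Slc9a4 (-3.82, SE 0.64, adjusted p = 0.0092) and Slc4a11 (-2.13, SE 0.49, adjusted p = 0.021) fell. Slc16a3 and Slc9a4 kept these calls in every alternative in which they were tested (highest 0.0099 and 0.044). The Slc16a1 call was lost without anti-A9 mouse 2 or 3 (0.008 to 0.07), and that of Atp12a without any 1 anti-A9 mouse or IgG mouse 3 (0.0093 to 0.084). Calls of Slc4a4 (0.0081 to 0.069), Slc4a11 (0.0065 to 0.073) and Slc9a2 (0.0088 to 0.10) were lost without any 1 anti-A9 mouse and without IgG mouse 1 or 3. The count of 10 became 3 without anti-A9 mouse 2 or 3, 4 without anti-A9 mouse 1 or IgG mouse 3, and 6 without IgG mouse 1. Slc4a2, an anion exchanger of many cells, and Best2, a bicarbonate channel of goblet cells, were called in neither comparison (Slc4a2 19.77 to 23.12 FPKM in all 9 mice). In anti-A9 against Control none of the 19 was called by limma, and 1 had an unadjusted p under 0.05, beside 2439 of all 15278 genes.

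**Figure D5:**
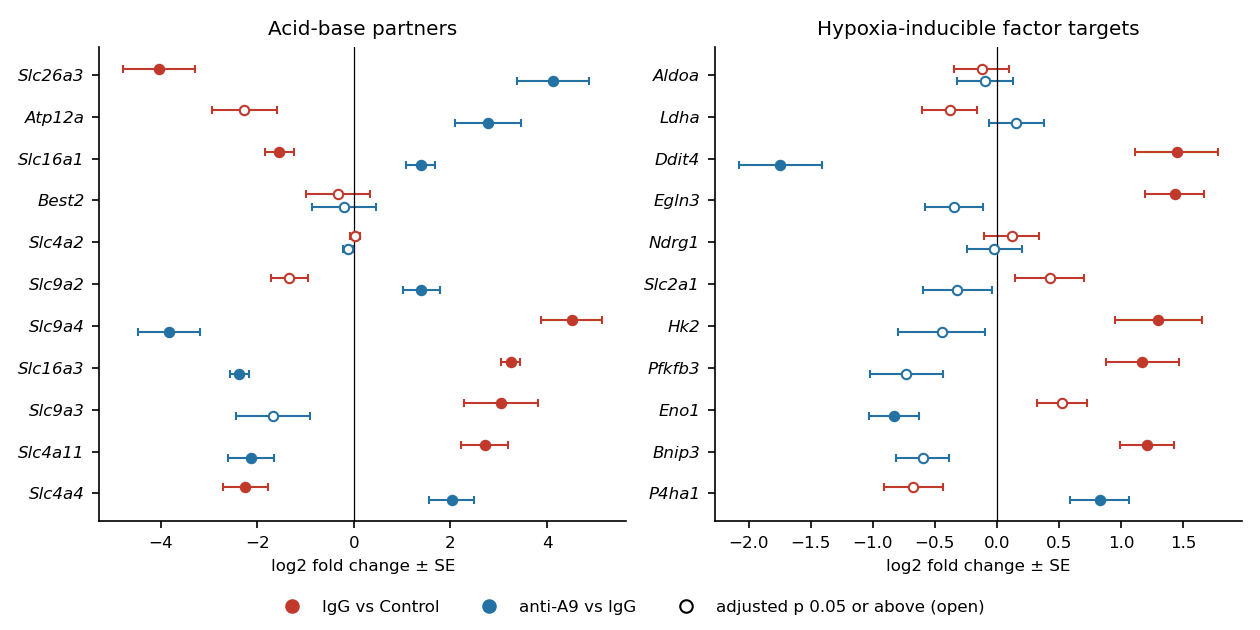
Log2 fold changes (x axis, bars 1 SE) of named acid-base partners (left) and hypoxia-inducible factor targets (right) in IgG vs Control (red) and anti-A9 vs IgG (blue); filled points have an adjusted p under 0.05. Slc26a3 has a red point at -4.03 and a blue one at 4.13, Slc16a3 has them at 3.25 and -2.37, and Aldoa, Ldha and Ndrg1 have open points in both colours.

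Car9 is a known target of the hypoxia-inducible factors, whose core binding letters are ACGTG or GCGTG. Both strands of the 250 bases before RefSeq starts (GRCm38.p6) were searched for these letters. They were found in 38.6% of 32851 such windows. The RefSeq table held windows for 4 of the 9 genes. A match was present in the window of Car9 and in 2 of the 3 windows of Car7, and not in those of Car4 and Car12. The match of Car9 begins 18 bases before the start, and the 30 bases before it are shown because Car9 is the member best known for this control (chr4:43506996-43507025, plus strand, with the match, ACGTG on the minus strand, in capitals). The GENCODE model of the gene starts upstream of this stretch.
Car9: ctatttccgatgCACGTacagcccgtccac
The match is a description of the letters only.

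Other hypoxia targets changed unevenly. Of the 23 tested 5 changed in IgG against Control, all of them higher, with a median log2 fold change of 0.23 (0.09 over all genes tested). The share of all genes tested was 8.18% called higher and 3.01% called lower. Egln3, the oxygen-sensing prolyl hydroxylase, was 26.60, 17.71 and 16.07 FPKM in Control, 41.40, 58.61 and 62.23 in IgG, and 34.31, 47.95 and 44.66 in anti-A9. It rose by 1.43 (SE 0.24, adjusted p = 0.0082), and Bnip3, a mitophagy receptor, by 1.21 (SE 0.22, adjusted p = 0.011), and both kept their calls in all 18 alternatives (highest adjusted p 0.039 for each). Ddit4, an inhibitor of mTORC1, rose by 1.45 (SE 0.33, adjusted p = 0.028), a call lost without Control mouse 1 or 2 or IgG mouse 1 or 3 (0.0031 to 0.10). It was also lost with only the 2 groups compared in the limma fit (adjusted p = 0.086). The glycolytic genes Hk2 (1.30, SE 0.35, adjusted p = 0.047) and Pfkfb3 (1.17, SE 0.30, adjusted p = 0.037) rose as well. Of the fits that left out 1 mouse, only that without IgG mouse 3 kept Hk2 (0.049 to 0.11), and only those without Control mouse 1, anti-A9 mouse 1 or anti-A9 mouse 2 kept Pfkfb3 (0.022 to 0.13). Of the 9 alternatives in processing or groups fitted, 2 kept Hk2 and 8 kept Pfkfb3. The abundant targets Aldoa, Ldha, Ndrg1 and Slc2a1 were not called in any comparison. The count of 5 was 2 without Control mouse 2 and 3 without Control mouse 1, IgG mouse 1, IgG mouse 3 or anti-A9 mouse 3.

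In anti-A9 against IgG, Ddit4 fell by 1.75 (SE 0.33, adjusted p = 0.014) and the glycolytic enzyme gene Eno1 by 0.83 (SE 0.20, adjusted p = 0.024), and the collagen prolyl hydroxylase gene P4ha1 rose by 0.83 (SE 0.24, adjusted p = 0.042). With 6.72% of all genes tested called higher and 14.4% lower, calls were no more frequent among these 23 targets than over all genes. The Ddit4 call was lost without anti-A9 mouse 2 (adjusted p = 0.056; 0.0029 to 0.056), that of Eno1 without any 1 anti-A9 mouse or IgG mouse 3 (0.0069 to 0.081), and that of P4ha1 was kept, among the fits without 1 mouse, only without Control mouse 3 or IgG mouse 2 (0.005 to 0.11). The count of 3 was 0 without anti-A9 mouse 2, 1 without anti-A9 mouse 1 or 3 or IgG mouse 3, and 2 without Control mouse 1 or 2. No target was called by limma in anti-A9 against Control, and 3 had an unadjusted p under 0.05, beside 2439 of all 15278 genes tested.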

How the data were processed

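The authors deposited 1 file per mouse with a decimal value per gene symbol, FPKM as far as the values show. Per the labels their tools were TopHat, Cufflinks, HTSeq and DESeq on GRCm38 (versions not given in the sources used here), and RNA was extracted with a mirVana kit. Rows that repeat a symbol (46 of 21544) were summed. FPKM totals, without counts, give no depth. The tests were run with limma 3.58.1 (R 4.3.3) on log2(FPKM + 0.1) of all 9 samples, with an intensity trend, 8.87 degrees of freedom and Benjamini-Hochberg adjustment over 15278 genes. On simulated data, 91% of 200 genes with a log2 fold change of 3 between IgG and Control were recovered among 15278, and 11 unchanged genes were called. The noise was independent and normal, and the 200 were drawn above a minimum mean level. Car7 lies below that level, so low genes are not covered. Members and lists were chosen with earlier results of these data known. Named genes were the 9 members, the other carbonic anhydrases, the 6 most abundant genes of the acid-base and hypoxia lists plus called ones (the 8 with the largest change in IgG against Control where over 8 were called), the 3 most abundant of each marker list, and the 3 nearest profiles of each member. Further called genes of short counts were named after their values were seen, and Plin1 was drawn outside these rules. Alternatives changed the pseudocount, filter, scaling, trend, groups fitted, replicate block, thresholds and mice included. Same-numbered mice of different groups correlated at -0.187 to 0.249, so the numbers were not taken as pairs. Zinc-site sequence is given for 8 of the 9 genes. Positions are from GENCODE M21, which names 97.5% of the symbols. Python 3.11.15, pandas 2.3.3, Biopython 1.88 and matplotlib 3.10.9 were used. p-values set a group difference against the spread between these mice. The paper states that several mice shared a cage, without saying how cages fell across these groups, and no batch is given.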

Additional observations from a re-analysis of the deposited data

How the results depend on the processing

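With the replicate block, which pairs mice of the same number, 4 members were again lower in IgG than in Control and 4 higher in anti-A9 than in IgG, and 1703, 3361 and 2 genes were called in IgG against Control, anti-A9 against IgG and anti-A9 against Control. With only the 2 groups compared in the fit, IgG against Control gave 627 genes (1710 with all groups), 1 member lower, 4 acid-base partners and 2 hypoxia targets. Without a mouse these counts were 591 to 2167, 0 to 4, 3 to 8 and 2 to 5, and in anti-A9 against IgG 516 to 4114 genes, 0 to 4 members higher, 3 to 10 partners and 0 to 4 targets. Anti-A9 against Control gave 2 genes, and 0 to 5 without a mouse. It gave 4 with pseudocount 0.01, 1 with no filter or no intensity trend and 0 with only the 2 groups. Under the study's thresholds, applied to limma and not to its DESeq test, it gave 481. These thresholds added 1 member and 1 hypoxia target there and left 1 hypoxia target in anti-A9 against IgG. Quantile normalization moved the median of all genes in IgG against Control from 0.09 to -0.03 and the share of higher calls from 73.1% to 60.0%, and in anti-A9 against IgG that share from 31.9% to 44.9%. It lost the call of Car2 in IgG against Control, and no filter or no intensity trend lost that of Car3. No called difference changed direction. Without counts, depth is unknown, and the counting error of low genes such as Car7 cannot be set apart from the spread between mice.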
